A study of Saccharomyces cerevisiae with 4 samples.

Results

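The Hsp70, Hsp90, Hsp100 and small heat-shock chaperones of budding yeast were examined as 10 ORFs picked by systematic name from the 5371 ORFs with footprint values: *SSA1*, *SSA2*, *SSA3*, *SSA4*, *HSP82*, *HSC82*, *HSP104*, *HSP78*, *HSP26* and *HSP42*. The rule used gene names and no measured value, although earlier results of these data were known when it was set. All 10 ORFs were listed in every library, and all 10 were among the 5338 ORFs whose mean over the libraries reached 1 RPKM and which were tested. Ribosome profiling, the sequencing of mRNA fragments protected by ribosomes, was done on 2 wild-type and 2 *dbp1Δ* libraries from *Saccharomyces cerevisiae* cultures of the SK1 background, which sporulates efficiently, sampled 6 h after transfer to sporulation (SPO) medium and treated briefly with cycloheximide. *DBP1* encodes an RNA helicase of the DEAD-box family, and the *dbp1Δ* strain had lost its ORF through Cas9 editing with no resistance cassette left behind. The strain list holds 1 diploid of this kind, homozygous for the deletion and also carrying *ho::LYS2*, *lys2*, *ura3*, *LEU2*, *his3::hisG* and *trp1::hisG*, so both mutant libraries represent a single strain. A wild-type diploid with the same other alleles is on the list, but which wild-type diploid gave these libraries is not given in the sources used here.

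Chaperones keep other proteins soluble and folded. Hsp70 proteins bind exposed hydrophobic stretches of unfolded chains and release them in a cycle driven by ATP, which J proteins (Hsp40) stimulate and nucleotide exchange factors reset. Hsp90 takes over clients at a later step of folding, the Hsp100 ATPases pull chains out of aggregates, and small heat-shock proteins coat denatured proteins without using ATP. In growing yeast *SSA1*, *SSA2* and *HSC82* are regarded as the constitutive genes of their families, while *SSA3*, *SSA4* and *HSP82* are raised by heat or other stress, much of it through the transcription factors Hsf1 and Msn2/Msn4. Meiosis and spore formation in yeast follow from starvation in acetate medium, and *HSP26* and *HSP82* transcripts are known to accumulate in sporulating cells.

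The libraries held between 4619171 and 5789194 mapped reads, as far as the steps of the RPKM values (reads per kilobase of ORF, scaled by the mapped reads of the library) show. The footprints of *DBP1* itself followed the labels, with wild-type values of 164 and 147 RPKM and *dbp1Δ* values of 0.578 and 0.449 RPKM. All 10 early and all 10 middle meiotic genes checked were at 10 RPKM or more in every library. By the mean over the libraries, 4255 of the 5371 ORFs reached that level. The *dbp1Δ* replicates differed at least 2-fold in 222 of the tested ORFs (4.16%), on the scale of log2(RPKM + 0.5), and the wild-type replicates in 51 (0.955%). *dbp1Δ* replicate 1 stood apart. It differed that much from wild-type replicates 1 and 2 in 159 and 146 ORFs, and *dbp1Δ* replicate 2 did in 41 and 79. The summed RPKM of the early meiotic genes was 5721 in *dbp1Δ* replicate 1 and between 3886 and 4714 in the other 3 libraries, and that of the middle meiotic genes was 14910 against 16218 to 16406.

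The 10 chaperones took 0.973% and 0.972% of the mapped reads in wild-type replicates 1 and 2 and 1.06% and 0.884% in *dbp1Δ* replicates 1 and 2. Their levels spanned a wide range that was similar in all libraries, with *SSA3* highest and *SSA2* lowest by the mean over the 4 libraries. The order of the means was *SSA3*, *HSC82*, *SSA1*, *HSP82*, *HSP26*, *HSP42*, *HSP78*, *HSP104*, *SSA4* and *SSA2*. Of the 9 neighbouring pairs in this order, 4 had ranges over the 4 libraries that overlapped (*SSA3* and *HSC82*, *HSC82* and *SSA1*, *HSP26* and *HSP42*, *HSP104* and *SSA4*), and the other 5 pairs kept their order in every library with no overlap. Since RPKM is relative to the reads of a library, fewer cells translating a gene and fewer footprints per cell cannot be told apart in such bulk samples. Only footprints were used, and mRNA levels were not analysed here.

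**Figure D1:**
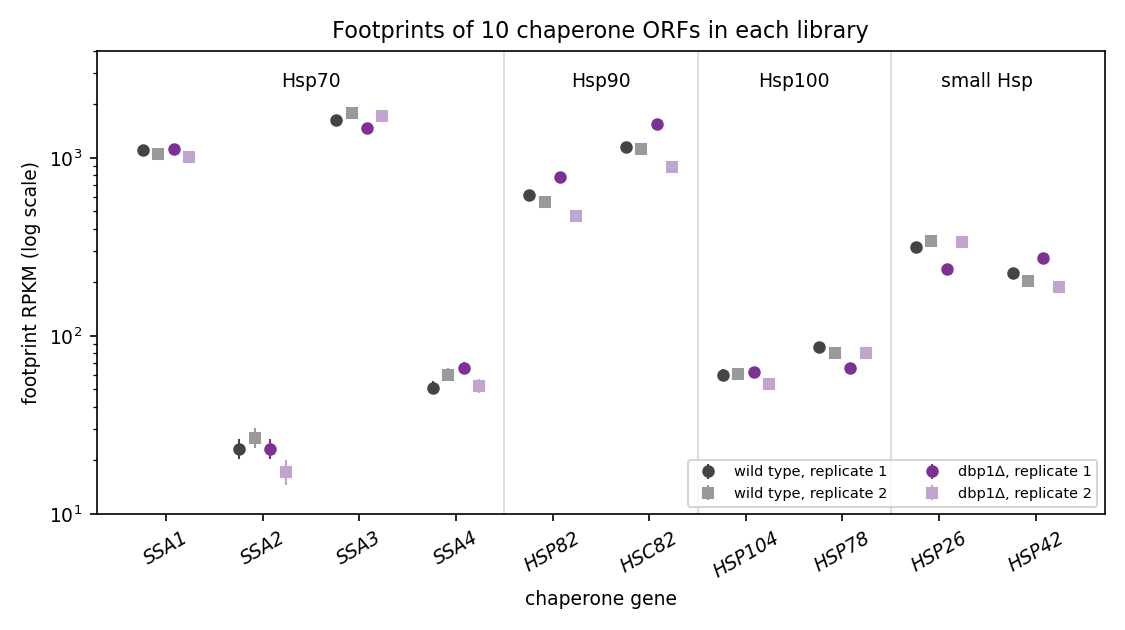
Footprint RPKM on a log scale for each of the 10 chaperone ORFs in the 4 libraries, with vertical bars for exact 95% Clopper-Pearson intervals of the reads (counting error only). *SSA3* lay between 1467 and 1777 RPKM and *SSA2* between 17.1 and 26.8 RPKM, and *HSP82* and *HSC82* were highest in *dbp1Δ* replicate 1 and lowest in *dbp1Δ* replicate 2.

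Among the cytosolic Hsp70 genes, *SSA3* (YBL075C), the paralog known for its rise at nutrient limitation, had the highest level. Its wild-type values were 1627 and 1777 RPKM (replicates 1 and 2, the order used throughout) and its *dbp1Δ* values were 1467 and 1722 RPKM. These values put it between rank 89 and rank 108 of all ORFs, within the top 2.01% in every library, and the genotypes overlapped. *SSA1* (YAL005C), the Hsp70 that is abundant in growing cells and further raised by heat, had wild-type values of 1101 and 1048 RPKM and *dbp1Δ* values of 1116 and 1015 RPKM. It varied least of the 10 ORFs, with a highest value 1.10 times the lowest. The lead of *SSA3* over *SSA1* is uncertain, because the handling of reads shared by *SSA1* and *SSA2* is not known.

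*SSA2* (YLL024C), which is counted as constitutive, had the lowest level of the 10 ORFs. Its wild-type values of 23.2 and 26.8 RPKM rested on 228 and 230 reads, and its *dbp1Δ* values of 23.1 and 17.1 RPKM on 249 and 158 reads. Between 55.5% and 65.4% of all ORFs were at or above it, so its footprint density was below the median ORF in every library. *SSA4* (YER103W), the Hsp70 most closely tied to heat shock, had wild-type values of 51.2 and 60.6 RPKM and *dbp1Δ* values of 66.0 and 52.1 RPKM. The ranges of the genotypes overlapped. *SSA1* and *SSA2* encode nearly identical proteins, and how reads that map to both copies were counted is not given in the sources used here, so the split between these paralogs is uncertain. The reads recovered for all 10 ORFs were whole numbers in all 4 libraries, within 0.02 of a read.

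Of the summed *SSA1* to *SSA4* level, *SSA3* made up 58.1% and 61.0% in wild type and 54.9% and 61.4% in *dbp1Δ*, with *SSA1* at 39.3%, 36.0%, 41.8% and 36.2% in the same order. *SSA2* and *SSA4* together were a small remainder, with at most 0.919% for *SSA2* and 2.47% for *SSA4*. The sum of *SSA1* and *SSA2*, which does not depend on how reads were divided between them but would miss any that were discarded, came to 1125 and 1075 RPKM in wild type and to 1139 and 1032 RPKM in *dbp1Δ*. *SSA3* exceeded it 1.45-fold and 1.65-fold in wild type and 1.29-fold and 1.67-fold in *dbp1Δ*. By these values the order of the family in each of the 4 libraries was *SSA3*, *SSA1*, *SSA4* and *SSA2*. That put 1 inducible and 1 constitutive gene at the top and 1 of each at the bottom. The places of *SSA1* and *SSA2* in this order depend on reads shared between them, whose treatment is not known.

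*HSC82* (YMR186W), the constitutive Hsp90 gene, had wild-type values of 1157 and 1119 RPKM and *dbp1Δ* values of 1546 and 894 RPKM. *HSP82* (YPL240C), the inducible one, had wild-type values of 622 and 564 RPKM and *dbp1Δ* values of 782 and 474 RPKM. In both genes *dbp1Δ* replicate 1 was the highest library, *dbp1Δ* replicate 2 was the lowest, and the wild-type values lay between them. The exact 95% interval of *HSC82*, which covers counting error only, ran from 1524 to 1569 RPKM in *dbp1Δ* replicate 1 and from 876 to 913 RPKM in replicate 2. The sum of both Hsp90 genes came to 1778 and 1683 RPKM in wild type and to 2328 and 1368 RPKM in *dbp1Δ*, 1.70 times as high in *dbp1Δ* replicate 1 as in replicate 2. Against the summed *SSA* level, the Hsp90 sum was 0.634 and 0.578 in wild type and 0.871 and 0.488 in *dbp1Δ*. The Hsp70 sum moved far less, from 2672 to 2913 RPKM over the 4 libraries, and was lowest in *dbp1Δ* replicate 1.

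The Hsp100 disaggregases were found at moderate levels. *HSP104* (YLL026W), the cytosolic disaggregase needed for survival of severe heat, had wild-type values of 60.5 and 61.4 RPKM and *dbp1Δ* values of 62.3 and 53.9 RPKM. *HSP78* (YDR258C), its relative in the mitochondrial matrix, had wild-type values of 86.6 and 80.4 RPKM and *dbp1Δ* values of 66.4 and 80.5 RPKM. Both ORFs lay in the upper 36.7% of ORFs in every library. *HSP78* was above *HSP104* in all 4 libraries, although the gap in *dbp1Δ* replicate 1 was small.

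The small heat-shock genes were higher than the disaggregases. *HSP26* (YBR072W), whose protein binds denatured chains after activation by heat, had wild-type values of 315 and 340 RPKM and *dbp1Δ* values of 237 and 339 RPKM. *HSP42* (YDR171W), which collects misfolded proteins into cytosolic deposits, had wild-type values of 227 and 204 RPKM and *dbp1Δ* values of 274 and 188 RPKM. The value of *HSP26* in *dbp1Δ* replicate 1 was the lowest of its 4 and that of *HSP42* was the highest of its 4, so this library alone had *HSP42* above *HSP26*.

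**Figure D2:**
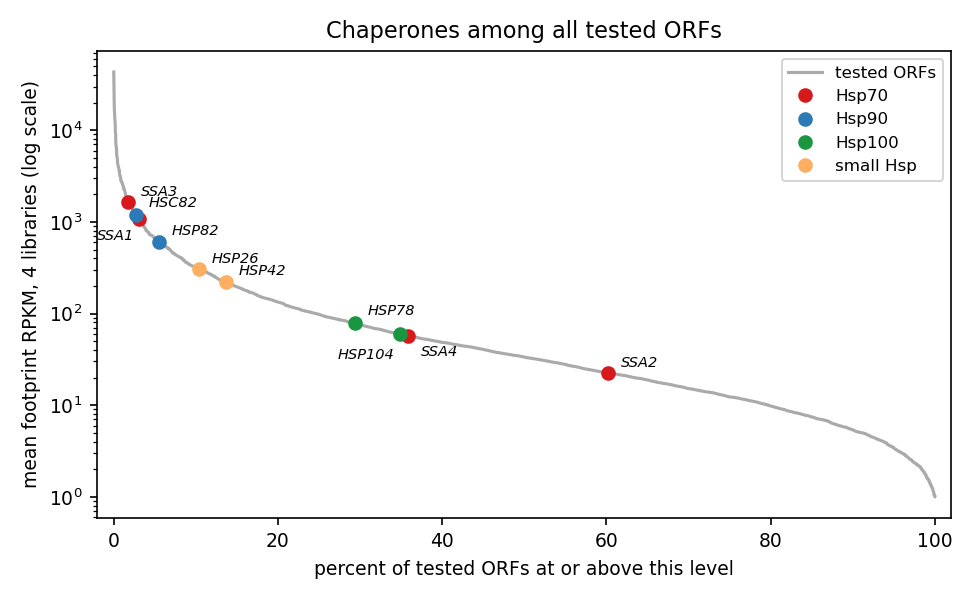
Mean footprint RPKM over the 4 libraries (log scale) against the percentage of tested ORFs at or above that level, with all tested ORFs as a line and the 10 chaperones as points coloured by family. *SSA3*, *HSC82*, *SSA1* and *HSP82* sit at the top end of the curve, at means of 1648, 1179, 1070 and 610 RPKM, and *SSA2* is past its middle at 22.5 RPKM.

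Ratios between paralogs were taken within each library, since RPKM is already per length and the scaling of the library cancels. *SSA1* was 47.6 and 39.1 times as high as *SSA2* in wild-type replicates 1 and 2 and 48.3 and 59.4 times as high in *dbp1Δ* replicates 1 and 2. The ratio of *SSA3* to *SSA2* was 70.3 and 66.4 in wild type and 63.4 and 101 in *dbp1Δ*. That of *SSA4* to *SSA2* was 2.21 and 2.26 in wild type and 2.85 and 3.05 in *dbp1Δ*. All of the *SSA* ratios are taken over the low *SSA2* value, so they share its counting error and its uncertain reads. *HSP82* was 0.538 and 0.504 times as high as *HSC82* in wild type and 0.506 and 0.530 times in *dbp1Δ*. This ratio kept within a narrow range, while the Hsp90 sum differed 1.70-fold between the *dbp1Δ* libraries, and *HSP82* made up between 33.5% and 35.0% of the Hsp90 sum in every library. The Hsp90 genes too encode nearly identical proteins, so the level of this ratio and its narrow range are uncertain for the same reason as the split of *SSA1* and *SSA2*, and the part of shared reads in them was not tested.

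In each of these 4 pairs the direction was the same in 4 of 4 libraries. A two-sided exact sign-flip permutation test over 4 libraries, both genotypes together, gave p = 0.125 for each pair, the smallest p it allows. That value follows from the shared direction alone, so the test adds nothing to the count of libraries. On the log2 scale with 0.5 added, the mean ratio of *SSA1* to *SSA2* was 5.40 ± 0.20 in wild type and 5.71 ± 0.20 in *dbp1Δ* (SD, n = 2 libraries each), and that of *SSA3* to *SSA2* was 6.07 ± 0.055 and 6.29 ± 0.46. *SSA4* to *SSA2* gave 1.15 ± 0.024 and 1.54 ± 0.062, and *HSP82* to *HSC82* gave -0.94 ± 0.066 and -0.95 ± 0.048. The difference between genotypes was 0.30 for *SSA1*/*SSA2*, 0.22 for *SSA3*/*SSA2*, 0.39 for *SSA4*/*SSA2* and -0.0077 for *HSP82*/*HSC82*. Over these 4 comparisons the two-sided exact permutation p was 0.333, 1.0, 0.333 and 1.0, with Benjamini-Hochberg adjusted values of 0.667, 1.0, 0.667 and 1.0, and with 2 libraries against 2 it cannot go below 0.333. Only the *SSA1*/*SSA2* and *SSA4*/*SSA2* ratios had genotypes that did not overlap, and for *SSA1*/*SSA2* the gap was narrow.

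**Figure D3:**
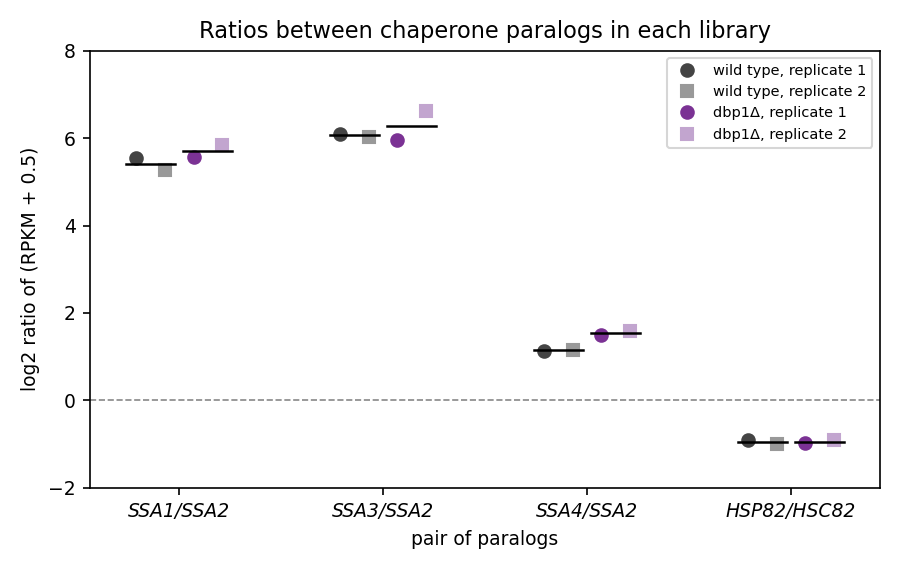
Log2 ratio of RPKM + 0.5 for the 4 pairs of paralogs, with 1 point per library and black lines at the mean of each genotype. *SSA3* and *SSA1* lie far above *SSA2* in all libraries, and the *HSP82*/*HSC82* points fall within 0.093 of each other.

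No chaperone was called different between *dbp1Δ* and wild type, in a comparison of 2 libraries with 2. In the fit over all tested ORFs with limma and Benjamini-Hochberg adjustment, 2 ORFs (0.0375%) had an adjusted p under 0.05, and 0 of the 10 chaperones did. Of the 2, the ORF lower in *dbp1Δ* was *DBP1* itself, with a log2 difference of -7.27 (limma adjusted p = 4.4e-06). With so few calls, 0 of 10 does not set the chaperones apart from other ORFs. Without adjustment 89 ORFs (1.67%) and again 0 of the 10 had p under 0.05, and 0 of the 10 were called when limma voom was applied to recovered reads, an analysis added once the values were known. The median log2 difference of the 10 was -0.043, beside -0.033 over all tested ORFs, with 4 positive and 6 negative values. The largest was that of *SSA2*, at -0.32 (standard error 0.22, limma adjusted p = 1.0), from a mean of 24.96 ± 2.56 RPKM in wild type to 20.1 ± 4.27 RPKM in *dbp1Δ* (SD, n = 2 libraries each). *SSA2* was also the only one of the 10 whose genotypes did not overlap, while 24.9% of tested ORFs had that property. Its values in wild-type replicate 1 and *dbp1Δ* replicate 1, at 23.2 and 23.1 RPKM, were nearly equal, and their counting intervals overlapped almost wholly.

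For the other 9 chaperones the log2 differences ran from -0.21 (*HSP26*) to 0.078 (*HSP42*). The mean of *HSP26* was 327 ± 17.9 RPKM in wild type and 288 ± 72.1 RPKM in *dbp1Δ*, and that of *HSP42* was 215 ± 16.2 and 231 ± 60.8 RPKM. *HSC82* had means of 1138 ± 26.5 and 1220 ± 461 RPKM, with a log2 difference of 0.048 and a 95% interval from -0.52 to 0.62. *SSA3* had means of 1702 ± 106 and 1594 ± 180 RPKM and a log2 difference of -0.098, with an interval from -0.48 to 0.28. Over all 10 chaperones the 95% limma intervals reached no lower than -0.83 and no higher than 0.62. Without wild-type replicate 1 the interval of *SSA2* widened to -1.17 to 0.33, which includes a 2-fold decrease.

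The libraries of the same genotype differed more for some chaperones than the genotypes did. None of the 10 differed 2-fold within either genotype. Between the wild-type libraries the median absolute log2 difference was 0.12 for the chaperones and 0.12 for all tested ORFs, and no chaperone reached 0.25. Between the *dbp1Δ* libraries it was 0.38 for the chaperones and 0.31 for all tested ORFs. For each of the 10 the gap between the *dbp1Δ* libraries was larger than the difference between genotypes. The latter is a difference of means and so tends to be smaller than a gap between single libraries. The share of all tested ORFs with this property was not computed, so the count does not set the chaperones apart from other ORFs. *HSC82* and *HSP82* were furthest apart, at 1.73 and 1.65 times as high in *dbp1Δ* replicate 1, followed by *HSP42* at 1.46 times. *SSA2*, *SSA4*, *HSP104* and *SSA1* were also higher in *dbp1Δ* replicate 1, at 1.35, 1.27, 1.16 and 1.10 times. *HSP26*, *HSP78* and *SSA3* were lower there, at 0.699, 0.824 and 0.852 times. Thus 7 of the 10 were higher in *dbp1Δ* replicate 1 than in replicate 2, beside 54.4% of tested ORFs. In the same pair of libraries all 10 early meiotic genes were higher in replicate 1, with a median log2 difference of 0.80, and 2 of the 10 middle meiotic genes were, with a median of -0.33. Their part in the chaperone differences was not tested.

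Which *dbp1Δ* library was used set the sign of the difference for all of the chaperones but *SSA2* and *HSP78*. Without *dbp1Δ* replicate 1, the log2 difference was -0.35 for *HSC82*, -0.32 for *HSP82*, -0.19 for *HSP42* and 0.050 for *HSP26*, and 0 of the 10 passed (smallest limma adjusted p = 0.440). Without *dbp1Δ* replicate 2, *HSC82* at 0.44, *HSP82* at 0.40 and *HSP26* at -0.47 passed, with limma adjusted p-values of 0.0188, 0.0353 and 0.0305. In that fit 518 ORFs (9.70%) were called, and the lone *dbp1Δ* library is assumed to vary like the wild-type ones, so these 3 calls compare 1 library with wild type and not the genotypes.

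**Figure D4:**
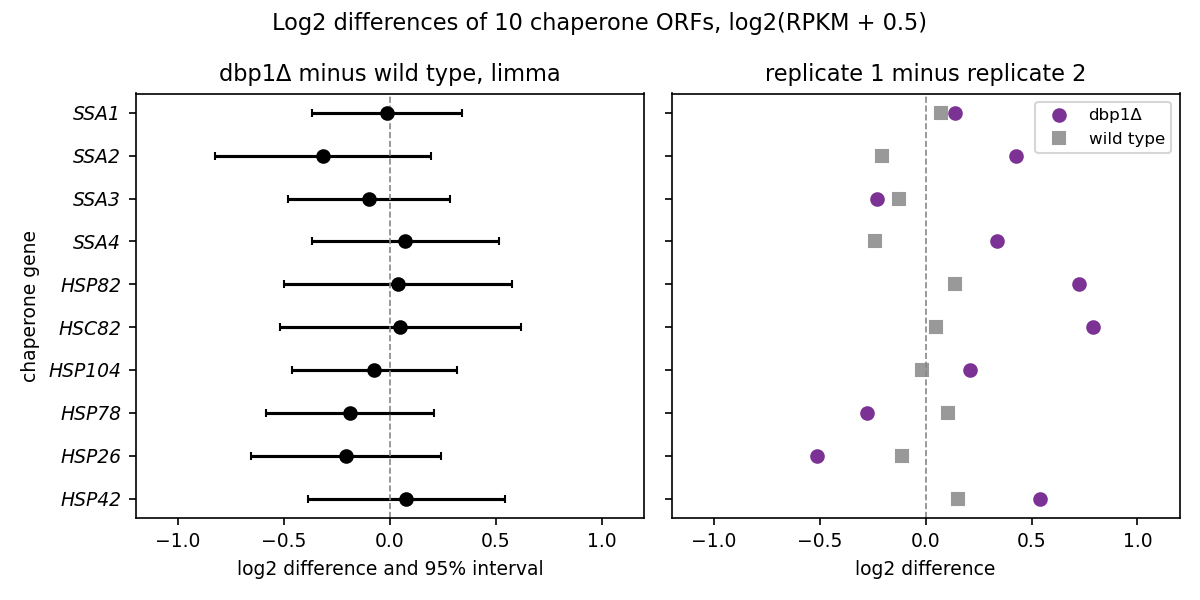
Left, log2 difference between *dbp1Δ* and wild type on the log2(RPKM + 0.5) scale with 95% intervals from limma for the 10 chaperones. Right, log2 difference between replicate 1 and replicate 2 within each genotype, where the wild-type points stay within 0.24 of 0 and the *dbp1Δ* points run from -0.52 (*HSP26*) to 0.79 (*HSC82*).

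The partners of these chaperones were followed in 7 lists of co-chaperones, other chaperones and stress regulators, of whose 73 genes 70 were listed and tested. In limma 0 of the 70 had an adjusted p under 0.05, beside 0.0375% of tested ORFs, and 0 an unadjusted one, beside 1.67%, so the lists were near the background. Median log2 differences between genotypes were 0.010 for 16 J proteins, -0.030 for 6 nucleotide exchange factors, -0.024 for 12 Hsp90 co-chaperones, -0.097 for 7 other Hsp70 proteins and 0.017 for 16 chaperonin and prefoldin subunits. They were 0.20 for 7 other heat-shock and sorting factors and 0.054 for 6 stress regulators, against -0.033 over all tested ORFs.

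Among J proteins, *SIS1*, which works with Hsp70 on misfolded proteins and on translation, had the highest mean and ranged from 455 to 533 RPKM. *DJP1*, involved in import into peroxisomes, followed with 149 to 203 RPKM. *YDJ1*, the main cytosolic J protein of growing cells, had wild-type values of 164 and 172 RPKM and *dbp1Δ* values of 226 and 125 RPKM. *SSE2* and *SSE1*, a pair of exchange factors of the Hsp110 family for cytosolic Hsp70, ranged from 284 to 308 RPKM and from 147 to 263 RPKM, and *SIL1*, the exchange factor for Hsp70 in the endoplasmic reticulum, from 83.2 to 116 RPKM. Of these genes, *YDJ1* and *SSE1* were highest in *dbp1Δ* replicate 1 and lowest in *dbp1Δ* replicate 2. *DJP1* and *SIL1* had the reverse pattern, and *SIS1* and *SSE2* had neither. How many of all tested ORFs had either pattern was not computed.

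*CDC37*, the Hsp90 co-chaperone for protein kinases, had the highest mean of its list and ranged from 679 to 814 RPKM. *SBA1*, the p23 homolog that binds the ATP-bound form of Hsp90, ranged from 544 to 760 RPKM, and *STI1*, which bridges Hsp70 and Hsp90, from 205 to 253 RPKM. In *SBA1* and *STI1*, as in the Hsp90 genes, *dbp1Δ* replicate 1 was highest and replicate 2 lowest, while *CDC37* was lowest in *dbp1Δ* replicate 1. The early meiotic genes *IME1*, *DMC1*, *HOP1*, *MEK1*, *HOP2*, *REC8*, *ZIP1*, *RED1* and *SPO11* had the same highest and lowest libraries as the Hsp90 genes. Of the early meiotic genes checked, only *IME2* did not. The share of all tested ORFs with this pattern was not computed. Between the *dbp1Δ* libraries 9 of the 12 Hsp90 co-chaperones were higher in replicate 1, with a median log2 difference of 0.36 beside 0.049 over all tested ORFs. Of all tested ORFs 54.4% were higher there. So were 13 of 16 chaperonin and prefoldin subunits, 10 of 16 J proteins, 6 of 7 other heat-shock and sorting factors and 5 of 6 stress regulators. Among nucleotide exchange factors 3 of 6 were, and among other Hsp70 proteins 4 of 7. The lean was thus not particular to the Hsp90 co-chaperones. In wild type 5 of the 12 Hsp90 co-chaperones were higher in replicate 1.

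In other compartments, *KAR2*, the Hsp70 of the endoplasmic reticulum, had wild-type values of 1090 and 1197 RPKM and *dbp1Δ* values of 1019 and 998 RPKM, a level close to that of *SSA1*. *SSC1*, the mitochondrial Hsp70, ranged from 305 to 346 RPKM, and *LHS1*, a second Hsp70 relative of the endoplasmic reticulum, from 86.7 to 96.9 RPKM. All values of *KAR2*, *SSC1* and *LHS1* were lower in *dbp1Δ* than in wild type, with log2 differences of -0.18, -0.13 and -0.097 (limma adjusted p = 1.0 for each), a lack of overlap that 24.9% of tested ORFs had. The mitochondrial chaperonins *HSP10* and *HSP60* ranged from 566 to 656 RPKM and from 298 to 342 RPKM, and the prefoldin subunit *GIM4* from 272 to 326 RPKM.

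Of the regulators, the footprints of *HSF1*, which encodes the heat-shock transcription factor, gave wild-type values of 23.2 and 21.1 RPKM and *dbp1Δ* values of 24.6 and 19.9 RPKM. *GAC1*, a regulatory subunit of protein phosphatase 1 that acts on Hsf1, ranged from 88.9 to 123 RPKM, *YAP1*, the regulator of the oxidative stress response, from 70.1 to 92.3 RPKM, and *SKN7*, which shares targets with it, from 32.2 to 41.0 RPKM. Footprints on an mRNA do not show the activity of the factor.

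For each chaperone the ORF with the closest profile over the 4 libraries was sought among the 4255 ORFs whose mean reached 10 RPKM, by the Euclidean distance between log2(RPKM + 0.5) values centred on each ORF's own mean. *HSC82* and *HSP82* were each other's nearest neighbours within the 10, at a distance of 0.082, with 15 and 27 other ORFs nearer. The nearest ORFs outside the 10 were *KRE5* for *HSC82* and *SRP72* for *HSP82*, at 0.030 and 0.034. Both had low levels, with 10.7 to 19.3 RPKM for *KRE5* and 7.88 to 13.4 RPKM for *SRP72*. The distances take no account of counting error. *EMP47* was the nearest to *SSA3* (0.0075), *FPT1* to *SSA1* (0.017), *HIS2* to *SSA2* (0.029), *SCW4* to *SSA4* (0.019), *NGK1* to *HSP104* (0.010), *ERG12* to *HSP78* (0.020), *ARG80* to *HSP26* (0.015) and *SOG2* to *HSP42* (0.019). With only 4 libraries many ORFs lie close to each other by this measure, and for *SSA3* 896 ORFs were nearer than *HSP78*, the closest of the other chaperones.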

How the data were processed

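The authors mapped footprint reads to the SK1 genome and deposited RPKM values per ORF, which per the study's methods are reads scaled by the mapped reads of the sample and by gene length in kilobases. The submitters' processing notes name Bowtie2. Its version, the annotation and the treatment of reads that map more than once are not given in the sources used here. Replicates were not pooled and libraries were not scaled to each other. Groups came from the sample labels.

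Genotypes were compared on log2(RPKM + 0.5) for the 5338 ORFs whose mean reached 1 RPKM. The linear model held a genotype term alone (limma 3.58.1 under R 4.3.3, eBayes with a trend), and p-values were adjusted by Benjamini-Hochberg. Fold changes on this scale understate those of ORFs with low RPKM. Nothing says that equal replicate numbers share a culture or batch, and p-values measure the spread between these biological replicates. Symbols came from the S288C R64 annotation, which holds 5311 of the 5371 ORFs. No coordinates are given because the files use SK1. Depth was recovered from the steps of the values with ORF length less 60 nt, which gave whole reads (within 0.02) for 88.6% of values. The model and the recovery of reads were tested on simulated data. Clopper-Pearson intervals cover counting error only. These intervals used scipy 1.17.1, and exact tests were enumerated with numpy 2.4.6 in Python 3.11.15. Permutation p-values of the ratios were adjusted with statsmodels 0.14.6, and figures were drawn with matplotlib 3.10.9.

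The 10 ORFs and all lists were chosen with earlier results of these data known. From each partner list the 3 genes with the highest mean RPKM were named. *HSF1*, and the ratio of *SSA3* to the sum of *SSA1* and *SSA2*, were chosen after their values were seen. Alternatives tried were other pseudocounts, filters, scalings, eBayes without a trend, a replicate block and leaving out each library.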

Additional observations from a re-analysis of the deposited data

How the results depend on the processing

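In the comparison as reported 2 ORFs passed the adjusted threshold. A replicate block raised this to 25, or to 24 together with median centring, and changed no chaperone's call. Crossed pairing gave 28 and was added once the deviations of same-numbered libraries were seen to correlate at -0.14 across ORFs. Limma voom on recovered reads, added later too, called 1 ORF. With each library left out it ranged from 1 to 518, highest without *dbp1Δ* replicate 2. The causes were not tested. The number of chaperones called was 0 in each of these fits, except that leaving out libraries gave 0 to 3, with 3 (*HSC82*, *HSP82* and *HSP26*) without *dbp1Δ* replicate 2. *SSA1* had a log2 difference of -0.014 that turned to 0.0050 with median centring, alone or with the replicate block, and to 0.039 with quantile normalization. With each library left out, log2 differences ran from -0.082 to 0.055 for *SSA1*, -0.21 to 0.018 for *SSA3*, -0.096 to 0.24 for *SSA4*, -0.32 to 0.40 for *HSP82*, -0.35 to 0.44 for *HSC82*, -0.18 to 0.031 for *HSP104*, -0.47 to 0.050 for *HSP26* and -0.19 to 0.35 for *HSP42*. Those of *SSA2* and *HSP78* stayed negative in every fit. The paralog ratios were recomputed with other pseudocounts and with libraries left out only, and each kept its sign. Few reads (158 to 249 per library) and the unknown handling of reads shared with *SSA1* both limit the *SSA2* ratios.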

Other observations

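Among heat-shock genes outside the families described, *HSP12*, a small protein that associates with membranes, had a higher footprint level than any of the 10 chaperones, with wild-type values of 3644 and 3574 RPKM and *dbp1Δ* values of 5291 and 3510 RPKM. Its value in *dbp1Δ* replicate 1 stood above the other 3 libraries, and its log2 difference between genotypes was 0.26 (standard error 0.22, limma adjusted p = 1.0). *HSP150*, a secreted cell wall protein, had wild-type values of 270 and 285 RPKM and *dbp1Δ* values of 196 and 355 RPKM, with the opposite order of the *dbp1Δ* libraries. *HSP31*, a chaperone of the DJ-1 family, ranged from 56.0 to 74.7 RPKM.

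*SSB1* and *SSB2*, chosen after their values were seen, are the Hsp70 genes whose products bind nascent chains on the ribosome, and like *SSA1* and *SSA2* they encode nearly identical proteins. *SSB1* ranged from 5.76 to 9.50 RPKM and *SSB2* from 28.6 to 43.2 RPKM over the 4 libraries. *TEF1* and *TEF2*, also chosen after their values were seen, encode the same elongation factor and ranged from 6.25 to 9.44 RPKM and from 28.3 to 36.5 RPKM. Whether reads shared by such copies were left out of these values was not tested.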
